A study of Mus musculus with 37 samples.

Results

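The genes described here control M-phase promoting factor (MPF) and the Mos kinase in the mouse oocyte. They are 10 genes chosen by name from the 54752 genes of the count tables, and each was found there by its Ensembl identifier: the kinase Cdk1, the cyclins Ccnb1, Ccnb2, Ccnb3 and Ccna2, the inhibitory kinases Wee2 and Pkmyt1, the phosphatases Cdc25a and Cdc25b, and Mos. Oocytes were sequenced singly from 3 points of maturation: germinal vesicle, or GV, first metaphase, or MI, and second metaphase, or MII. The question was how the level of each gene changed after meiotic resumption. All 10 genes passed the filter on low counts in both comparisons.

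MPF is Cdk1 bound to a B-type cyclin. In the GV oocyte it is held inactive by kinases of the Wee1 and Myt1 families, and Cdc25 phosphatases remove the inhibitory phosphates when meiosis resumes, whereas Mos switches on the MAP kinase cascade that maintains the arrest at metaphase II. Fully grown oocytes make almost no new RNA, so these proteins are made from stored transcripts whose poly(A) tails are lengthened or shortened during maturation.

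All oocytes came from C57BL/6 females aged 6 to 8 weeks that had received 5 IU of pregnant mare serum gonadotropin (PMSG). Ovaries were the source of GV oocytes, at 48 h after PMSG. For MII oocytes, 5 IU of human chorionic gonadotropin (hCG) was given at 48 h after PMSG, and the ampulla was sampled 15 h later. MI oocytes were denuded GV oocytes kept for 8 h in M16 medium, so they matured in culture and without hCG, whereas MII oocytes matured in the animal. The zona pellucida and the polar body were removed from the oocytes, and each oocyte was one Smart-seq2 library read in pairs of 150 bases. Batch A held 6 GV and 6 MII oocytes, and batch B held 10 GV and 15 MI oocytes, 37 in all. MI was present in batch B only and MII in batch A only, so stage, batch and culture cannot be told apart when MI is set against MII. The separate animals behind the oocytes were not stated, and p-values therefore measure the spread between these oocytes alone.

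The total of RSEM expected counts per oocyte ran from 7509812 to 12648571 in GV oocytes of batch A, with a median of 10014000, and from 9930422 to 13988336 in MII oocytes, with a median of 10509100. In batch B it ran from 7184193 to 17724506 in GV oocytes (median 11548200) and from 2709247 to 19390137 in MI oocytes (median 12840700). Depth was thus similar between the stages of a batch, apart from MI oocyte 15, the shallowest library. The reads carried no molecular identifiers, so counts are not independent molecules. Levels below are in CPM, the count taken relative to the library size after TMM scaling within each batch, which makes them relative abundances, and they are compared between stages of one batch only. Levels of different genes are compared as RPKM, which also divides by transcript length. For a gene with several transcripts this length differed between oocytes with the estimated mix of isoforms. RPKM and its ratios therefore carry those estimates.

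The cell type was checked against marker genes. All 8 oocyte markers, among them Zp1, Zp2, Zp3, Gdf9 and Bmp15, were present in each group, and the most abundant was Gdf9, with a mean of 2809 CPM in GV and 2465 CPM in MII oocytes of batch A and of 2062 CPM in GV and 1710 CPM in MI oocytes of batch B. Their summed level had a median of 11326 CPM in GV and 6739 CPM in MII oocytes of batch A, and of 4008 CPM in GV and 3532 CPM in MI oocytes of batch B. At MII, 5 of the 8 were lower by edgeR's test and none was higher, against 11.5% lower and 9.06% higher of all genes tested. Those that fell were Zp1, Zp2, Zp3, Ooep and Nlrp5, while Gdf9, Bmp15 and Dppa3 did not pass. Of 14 cumulus and granulosa markers, 13 had a count in GV and 14 in MII oocytes of batch A, and 11 in GV and 10 in MI oocytes of batch B. The most abundant was Cyp19a1, with means of 16.1, 17.4, 15.8 and 13.7 CPM in these groups, while Ptx3 was at 0 in GV oocytes of batch A, Amh, Foxl2 and Ptx3 were at 0 in GV oocytes of batch B, and Hsd17b1 besides these 3 in MI oocytes. The summed level of all 14 had a median of 32.2 CPM in GV and 24.8 CPM in MII oocytes of batch A. In batch B it was 27.3 CPM in GV and 22.1 CPM in MI oocytes. Cyp19a1 and Kitl did not pass edgeR's test in either batch, and in batch A they were the only 2 of the 14 tested. Without these genes the summed level had a median of 9.77 CPM in GV and 2.27 CPM in MII oocytes of batch A, and of 7.88 CPM in GV and 2.58 CPM in MI oocytes of batch B. None of the markers in this remainder was tested in batch A. They did not all move down, since Has2 had means of 0.948 CPM in GV and 2.13 CPM in MI oocytes of batch B. Blood and immune markers, a list of 6, had counts for 4 in GV and 6 in MII oocytes of batch A and for 4 in GV and 3 in MI oocytes of batch B. Cd74 and Lyz2 were at 0 in all groups but MII, and the most abundant of the list were Ptprc (mean 0.0332 CPM, GV) and Hba-a1 (0.904 CPM, MII) in batch A and Hbb-bs (2.20 CPM in GV and 1.58 CPM in MI) in batch B. The value of Hba-a1 came mostly from MII oocyte 1 (5.15 CPM, group median 0.0488 CPM), and Lyz2 was detected in 1 of the 6 MII oocytes and Cd74 in 2. The summed medians of this list were 0.0795 CPM (GV) and 0.416 CPM (MII) in batch A and 2.05 CPM (GV) and 1.24 CPM (MI) in batch B. The part of the cumulus and blood markers in the results below was not tested.

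When all 10 genes were ordered by RPKM, Ccnb1, Mos and Wee2 stood at the top in every group. In GV oocytes of batch A the median was 342 RPKM for Ccnb1, 207 RPKM for Mos and 162 RPKM for Wee2, and this order held in 6 of 6 oocytes. Ccnb1 was above 99.4% of the 21149 genes with a median level above 0 in these oocytes. Cdk1 followed at 75.6 RPKM, then Ccnb2 at 57.4 and Ccna2 at 50.2, which were not ordered beyond their spread, since Ccnb2 was the higher of the pair in 3 of 6 oocytes. At the bottom were Cdc25a (21.1 RPKM), Cdc25b (15.5 RPKM), Pkmyt1 (8.28 RPKM) and Ccnb3 (7.15 RPKM), the last pair again in either order (3 of 6 oocytes each way). In MII oocytes Ccnb1 reached a median of 578 RPKM, ahead of Mos at 248 and Wee2 at 235, and Cdk1 stood at 35.4 RPKM, below Ccna2 at 75.0 and Ccnb2 at 61.9.

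In batch B the leading genes lay close together. GV oocytes held medians of 135 RPKM of Ccnb1, 132 RPKM of Wee2 and 129 RPKM of Mos, with Ccnb1 above Mos in 6 of 10 oocytes and Mos above Wee2 in 5 of 10. Cdc25a came next at 32.7 RPKM, ahead of Ccnb2 (23.7), Ccna2 (22.0) and Cdk1 (19.6). In MI oocytes the medians were 128 RPKM for Wee2, 117 for Ccnb1 and 113 for Mos, and Wee2 exceeded Ccnb1 in 9 of 15 oocytes. Ccnb3 (3.80 RPKM) and Pkmyt1 (2.20 RPKM) were the lowest at MI, as they were in GV oocytes of the same batch at 4.61 and 2.57 RPKM.

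**Figure D1:**
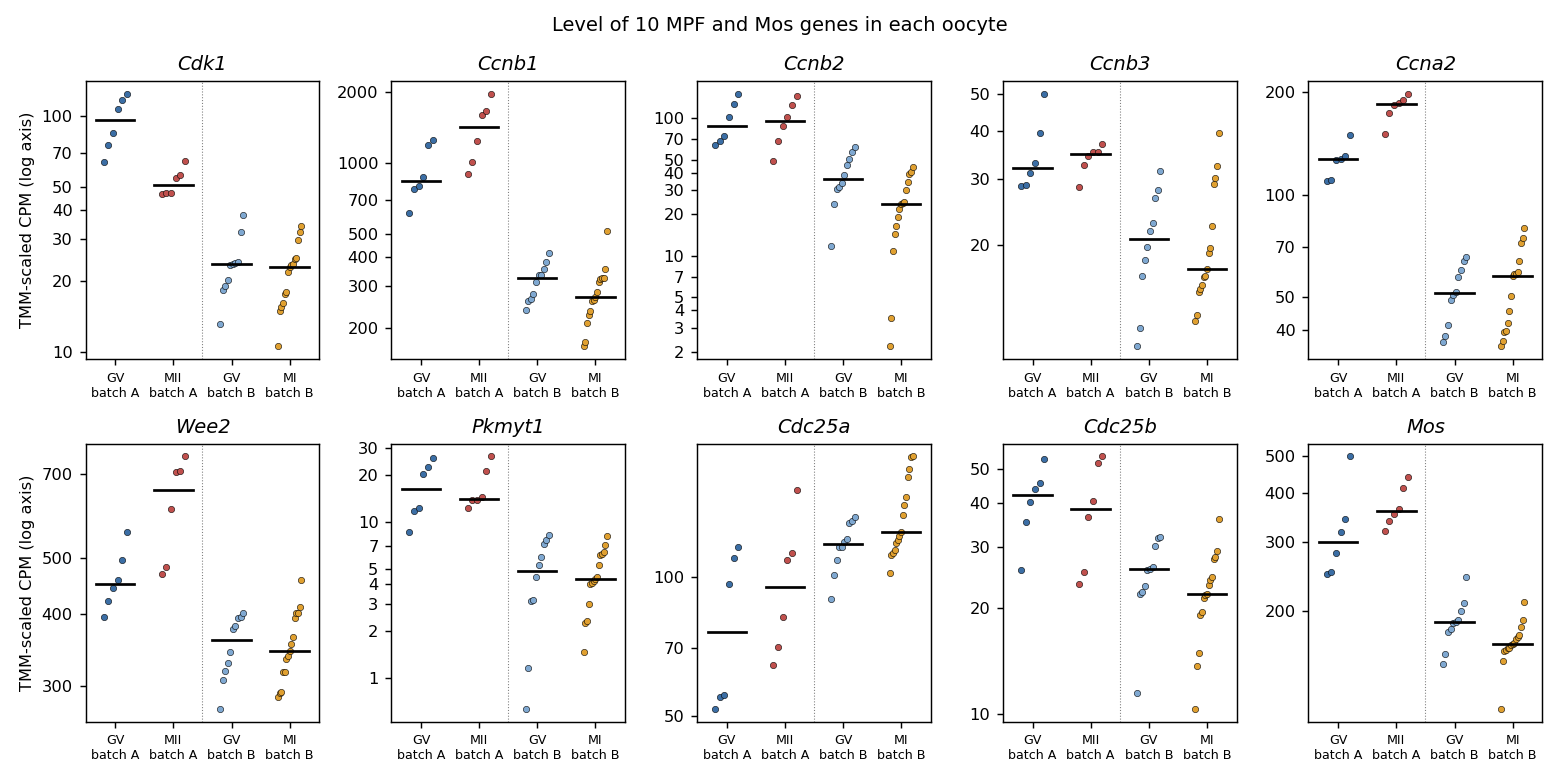
Level of each of the 10 genes in every oocyte, as TMM-scaled CPM on a log axis, with GV and MII oocytes of batch A to the left of the dotted line and GV and MI oocytes of batch B to the right. Points are oocytes and bars are medians, and in batch A MII oocytes lie above all GV oocytes for Ccna2, whose log2 change is below 0 on the spike-in scale, and overlap them barely for Cdk1.

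Between GV and MII in batch A, 3 of the 10 genes passed the test, edgeR's quasi-likelihood test with a Benjamini-Hochberg adjusted p under 0.05 over the 12929 genes tested. Cdk1 fell, and Ccna2 and Wee2 rose in relative abundance but had log2 changes below 0 when libraries were scaled to spike-in counts. The remaining 7 did not pass, although Ccnb1 missed by little. Of all genes tested, 9.06% were higher and 11.5% lower at MII, so 2 higher and 1 lower of 10 lay near the background. A fold change over 2 in addition was met by 0 of the 10 genes, against 8.47% of all genes, and 4 of the 10 had an unadjusted p under 0.05, as did 4441 of the 12929 genes. With DESeq2, 3 of the 10 were higher and 1 was lower, against 1497 higher and 1695 lower of all genes. The median log2 change of the 10 genes was 0.11, beside 0.01 for all genes tested.

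These changes are relative. Batch A also held ERCC spike-in RNA, with 44665 to 128319 counts in GV and 120280 to 143061 counts in MII oocytes, whereas oocytes of batch B had at most 32. When spike-in counts set the library scale, the median log2 change of all genes was −0.72, and 144 genes were higher and 5452 lower at MII, against 1172 higher and 1490 lower on the TMM scale. Smart-seq2 primes on the poly(A) tail, so a shorter tail and fewer transcripts cannot be told apart on either scale.

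Cdk1, the catalytic subunit of MPF (ENSMUSG00000019942, GRCm38/mm10, chr10:69335146-69352938, minus strand), had 64.2, 96.1 and 125 CPM at its lowest, median and highest in the 6 GV oocytes and 46.9, 51.1 and 64.7 CPM in the 6 MII oocytes. GV oocyte 6 was the lowest of its stage and MII oocyte 3 the highest of its own, and only this pair overlapped. The log2 change was −0.85 (SE 0.17, 95% confidence interval −1.21 to −0.49, adjusted p = 0.00269 by edgeR), a fall of 1.81 fold. Leaving out any 1 of the 12 oocytes kept the call, with log2 changes from −0.94 to −0.76. Per 1000 spike-in counts, Cdk1 had 7.38, 11.5 and 19.0 counts in GV oocytes and 3.63, 3.91 and 4.81 counts in MII oocytes. Here the stages did not overlap, and the log2 change on the spike-in scale was −1.59 (edgeR adjusted p = 3.95e-05), or −0.87 relative to the median of all genes. In batch B, Cdk1 had 13.1, 23.5 and 38.2 CPM in GV and 10.5, 23.0 and 34.3 CPM in MI oocytes. The stages overlapped over most of their range, with a log2 change of −0.10 (SE 0.19, edgeR adjusted p = 0.903).

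Ccnb1 encodes cyclin B1, the principal partner of Cdk1 (ENSMUSG00000041431, GRCm38/mm10, chr13:100778650-100786570, minus strand). It had 616, 836 and 1252 CPM in GV oocytes and 896, 1418 and 1969 CPM in MII oocytes of batch A. The upper GV oocytes lay within the MII range, and the highest value was that of MII oocyte 3. The log2 change was 0.61 (SE 0.21, 95% confidence interval 0.16 to 1.05), which did not pass with edgeR (adjusted p = 0.0508). It passed without GV oocyte 4 (edgeR adjusted p = 0.0357), GV oocyte 5 (0.0441), MII oocyte 1 (0.0368) or MII oocyte 5 (0.0259), and reached 0.114 without MII oocyte 3. With DESeq2 the adjusted p was 0.0232, and in edgeR it was 0.0390 with HTSeq counts, 0.0463 with RLE size factors, 0.0340 without a filter on low counts and 0.0981 with the oocyte number as a block. On the spike-in scale the log2 change was −0.10, and the counts per 1000 spike-in counts had medians of 104 in GV and 105 in MII oocytes. In batch B the levels were 239, 324 and 417 CPM in GV and 167, 271 and 517 CPM in MI oocytes, with a log2 change of −0.17 (SE 0.14, edgeR adjusted p = 0.731).

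Whether the change of Ccnb1 differed between the batches was tested in a fit of all 37 oocytes, as the change from GV to MII minus the change from GV to MI. The difference was 0.85 (SE 0.26, 95% confidence interval 0.33 to 1.37, edgeR adjusted p = 0.0400), and Ccnb1 alone of the 10 genes passed. Over the 15083 genes tested, 3.1% had a positive and 2.36% a negative difference, so 1 of 10 lay close to the background. With HTSeq counts the balance turned, with 119 positive and 200 negative of 15461 genes. The call was lost with HTSeq counts (difference 0.78, edgeR adjusted p = 0.129) and with HTSeq counts without MI oocytes 4, 8 and 9, whose ratio of HTSeq to RSEM counts stood apart from that of the other oocytes (0.0808), and it held with DESeq2 (0.0216). For Wee2 the difference was 0.50 (SE 0.17, edgeR adjusted p = 0.0822), which passed without MII oocyte 1 (0.0376) and with DESeq2 (0.0439). For Cdk1 it was −0.68 (SE 0.29, edgeR adjusted p = 0.184), so the fall of Cdk1 at MII was not shown to differ from its change at MI. The differences for Ccna2 (0.51, edgeR adjusted p = 0.207), Mos (0.46, 0.138) and Ccnb2 (0.77, 0.435) did not pass either.

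**Figure D2:**
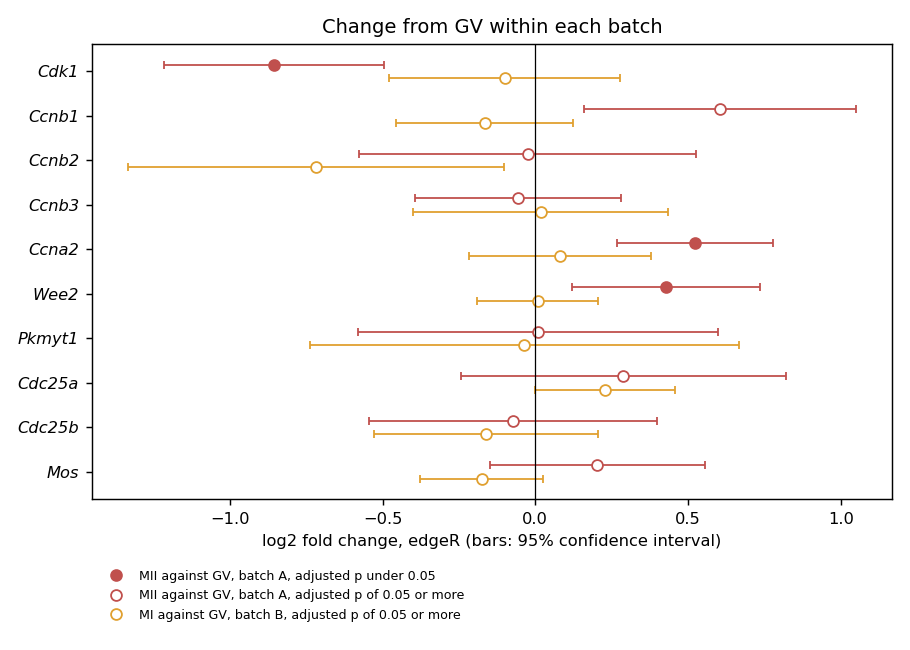
Log2 fold change from GV of the 10 genes by edgeR, to MII in batch A and to MI in batch B, with 95% confidence intervals as bars. Filled points have an adjusted p under 0.05, where Cdk1 lies at −0.85 and Ccna2 at 0.52 and Wee2 at 0.43 at MII, the last 2 with the opposite sign on the spike-in scale.

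The other B-type cyclins did not pass in either batch. Ccnb2, cyclin B2, which can stand in for cyclin B1 in the oocyte (ENSMUSG00000032218, GRCm38/mm10, chr9:70407692-70421547, minus strand), had 64.3, 87.8 and 151 CPM in GV and 49.0, 94.7 and 146 CPM in MII oocytes. The ranges nearly coincided, and the log2 change was −0.02 (SE 0.26, edgeR adjusted p = 0.959). In batch B it had 11.7, 36.3 and 62.2 CPM in GV and 2.19, 23.7 and 43.8 CPM in MI oocytes. The lowest MI value was that of MI oocyte 15, the shallowest library, with 4 counts of Ccnb2, and MI oocyte 6 had 30 counts. Ccnb2 was the most variable of the 10 genes at MI, with an SD of 1.11 on the log2 scale beside 0.58 for the median gene, and its log2 change of −0.72 (SE 0.30, 95% confidence interval −1.33 to −0.10, edgeR adjusted p = 0.351) was the largest of the 10 in that batch. Ccnb3, cyclin B3, needed for the exit from metaphase I (ENSMUSG00000051592, GRCm38/mm10, chrX:6979652-7041619, minus strand), had 28.6, 32.0 and 50.2 CPM in GV and 28.6, 34.8 and 37.0 CPM in MII oocytes. Its MII oocytes lay inside the GV range but for a margin at the low end, with a log2 change of −0.06 (SE 0.16, edgeR adjusted p = 0.837). At MI it had 12.7, 17.3 and 39.6 CPM against 10.8, 20.8 and 31.5 CPM in GV oocytes of batch B, a log2 change of 0.02 (SE 0.21, edgeR adjusted p = 0.989). On the spike-in scale both cyclins passed as lower at MII, Ccnb2 with −0.72 (edgeR adjusted p = 0.0331) and Ccnb3 with −0.80 (0.0204), values at and near the median change of all genes on that scale.

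Ccna2 encodes cyclin A2, which partners Cdk1 and Cdk2 (ENSMUSG00000027715, GRCm38/mm10, chr3:36564865-36572150, minus strand). It had 109.5, 127 and 149 CPM in GV oocytes and 150.5, 185 and 198 CPM in MII oocytes of batch A. Every MII oocyte was above every GV oocyte, which held for 1 of the 10 genes and for 4.08% of all genes tested, while 0 of the 10 genes and 5.71% of all genes had every MII oocyte below every GV oocyte. The log2 change was 0.52 (SE 0.12, 95% confidence interval 0.27 to 0.78, edgeR adjusted p = 0.00674), 1.44 fold, in relative abundance, and −0.22 on the spike-in scale (edgeR adjusted p = 0.429) or 0.50 relative to the median of all genes there. The call held without each of the 12 oocytes in turn and was lost when no filter on low counts was applied (edgeR adjusted p = 0.0605). In batch B, Ccna2 had 36.9, 51.3 and 65.5 CPM in GV and 35.7, 57.4 and 79.8 CPM in MI oocytes, with a log2 change of 0.08 (SE 0.15, edgeR adjusted p = 0.903). The last 863 bases of Ccna2 overlap Exosc9 on the opposite strand, and the strand setting of the counting was not stated, so reads from there cannot be assigned with certainty.

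Wee2, the oocyte-specific kinase that phosphorylates Cdk1 (ENSMUSG00000037159, GRCm38/mm10, chr6:40439088-40466813, plus strand), had 395, 451 and 556 CPM in GV and 469.7, 658 and 751 CPM in MII oocytes. MII oocytes were mostly the higher, and the lowest 2 of them lay within the GV range. The log2 change was 0.43 (SE 0.15, 95% confidence interval 0.12 to 0.74, edgeR adjusted p = 0.0462) in relative abundance and −0.30 on the spike-in scale (edgeR adjusted p = 0.256), where it was 0.42 relative to the median of all genes. This call rested on single oocytes. The edgeR adjusted p was 0.0885, 0.0693, 0.0737, 0.0625 and 0.0820 without GV oocyte 1, 2, 3, 5 or 6 and 0.100, 0.0970, 0.0728 and 0.0937 without MII oocyte 2, 3, 4 or 6. It stayed under 0.05 without GV oocyte 4 (0.0399), MII oocyte 1 (0.0279) or MII oocyte 5 (0.0292), and was 0.143 without a filter on low counts and 0.111 with the oocyte number as a block. At MI, Wee2 had 287, 346 and 458 CPM against 274, 361 and 402 CPM in GV oocytes of batch B, a log2 change of 0.01 (SE 0.10, 95% confidence interval −0.19 to 0.21, edgeR adjusted p = 0.989).

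Pkmyt1, the membrane-bound kinase that also inhibits Cdk1 (ENSMUSG00000023908, GRCm38/mm10, chr17:23726336-23736735, plus strand), was scarce. It had 8.61, 16.3 and 26.0 CPM in GV and 12.3, 14.2 and 26.5 CPM in MII oocytes, and 0.631, 4.88 and 8.28 CPM in GV and 1.46, 4.29 and 8.21 CPM in MI oocytes of batch B. The stages overlapped in both batches, with log2 changes of 0.01 (SE 0.28, edgeR adjusted p = 0.986) at MII and −0.04 (SE 0.34, edgeR adjusted p = 0.988) at MI. The 95% confidence interval at MII ran from −0.58 to 0.60. Pkmyt1 shares 550 bases with Paqr4 on the opposite strand, which had a mean of 261 counts in batch A and 152 in batch B, and HTSeq counts of Pkmyt1 were only 1.11 to 1.40 times its RSEM counts, against 1.55 times or more for the other 9 genes.

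Cdc25b, the phosphatase required for meiotic resumption in the mouse (ENSMUSG00000027330, GRCm38/mm10, chr2:131186949-131198497, plus strand), had 25.7, 42.0 and 53.5 CPM in GV and 23.5, 38.4 and 54.4 CPM in MII oocytes. The stages covered the same range, with a log2 change of −0.07 (SE 0.22, edgeR adjusted p = 0.849). In batch B it had 11.5, 25.8 and 32.0 CPM in GV and 10.3, 22.0 and 36.1 CPM in MI oocytes, a log2 change of −0.16 (SE 0.18, edgeR adjusted p = 0.811). Cdc25a, its paralog (ENSMUSG00000032477, GRCm38/mm10, chr9:109875579-109893895, plus strand), had 51.7, 76.0 and 116 CPM in GV and 64.4, 95.1 and 154 CPM in MII oocytes of batch A. Overlap was again wide, with a log2 change of 0.29 (SE 0.25, edgeR adjusted p = 0.446) that ran from 0.12 without MII oocyte 5 to 0.42 without GV oocyte 3 and passed in no such fit. At MI it had 102, 125 and 182 CPM against 89.4, 117 and 134 CPM in GV oocytes of batch B, a log2 change of 0.23 (SE 0.11, edgeR adjusted p = 0.456). Per length, Cdc25a was above Cdc25b in each group, at 21.1 against 15.5 RPKM in GV and 26.7 against 14.1 RPKM in MII oocytes of batch A, and at 32.7 against 10.6 RPKM in GV and 34.8 against 12.4 RPKM in MI oocytes of batch B. The median of Cdc25b was thus lower at MI in CPM but higher in RPKM. On the spike-in scale Cdc25b passed as lower at MII (−0.81, edgeR adjusted p = 0.0407), which is −0.10 relative to the median of all genes, and Cdc25a had −0.48 (0.220).

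Mos, the kinase at the head of the MAP kinase cascade of the oocyte (ENSMUSG00000078365, GRCm38/mm10, chr4:3870657-3872105, minus strand), is a single exon. It had 248, 300.0 and 498 CPM in GV and 321, 359.7 and 442 CPM in MII oocytes. The MII oocytes fell inside the GV range, but without GV oocyte 5, the highest, that range ended at 344 CPM and 4 of the 6 MII oocytes lay above it. The log2 change was 0.20 (SE 0.17, 95% confidence interval −0.15 to 0.55, edgeR adjusted p = 0.416) on the TMM scale and −0.55 (edgeR adjusted p = 0.0743) on the spike-in scale. Leaving out 1 oocyte moved it from 0.14 to 0.37 on the TMM scale, the highest without GV oocyte 5 (edgeR adjusted p = 0.0772). In batch B, Mos had 146, 187 and 243 CPM in GV and 112, 164 and 210.3 CPM in MI oocytes. Most MI oocytes lay below the GV median, with a log2 change of −0.18 (SE 0.10, 95% confidence interval −0.38 to 0.03, edgeR adjusted p = 0.536).

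Between GV and MI in batch B, 0 of the 10 genes passed edgeR's test. At an unadjusted p under 0.05 there was 1, Ccnb2, beside 1371 of all genes, and DESeq2 passed 0 of the 10, with 2 at an unadjusted p under 0.05, beside 1557 of all genes. Of the 12419 genes tested, 18 (0.145%) passed with edgeR and 177 with DESeq2, so few genes of any kind were called between these stages. The median log2 change of the 10 genes was −0.07, beside 0.02 for all genes tested. Of the 5 cumulus markers tested, Ccnd2 and Gja1 fell at MI, with log2 changes of −3.69 and −3.42 (edgeR adjusted p = 0.0174 for each), and Has2 (1.21), Kitl (0.04) and Cyp19a1 (−0.22) did not pass.

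A ratio of 2 genes within an oocyte does not depend on how libraries are scaled to each other. The ratios were built from genes already tested above in the same oocytes, so they are not independent of those results. How often the ratios of other gene pairs differed was not computed. The ratio of Ccnb1 to Cdk1 in RPKM was 3.80, 5.00 and 7.14 at its lowest, median and highest in GV oocytes of batch A and 12.3, 16.0 and 18.6 in MII oocytes. All MII oocytes were above all GV oocytes. The mean log2 ratio differed by 1.64, with a two-sided exact permutation p of 0.00216, the smallest that the 924 assignments of the oocytes allow, and 0.0173 after Benjamini-Hochberg adjustment over the 8 ratio tests. With HTSeq counts the difference was 1.46, at the same p. In batch B the medians were 6.69 in GV and 7.37 in MI oocytes, with ranges of 3.46 to 9.16 and 2.61 to 14.6, and the log2 difference was 0.08 (permutation p = 0.739, adjusted 0.845). With HTSeq counts this difference was −0.092 (permutation p = 0.722).

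The ratio of Ccnb2 to Ccnb1 moved the other way in batch A. It was 0.118, 0.172 and 0.202 in GV and 0.0867, 0.110 and 0.119 in MII oocytes, where only the lowest GV oocyte lay within the MII range. The log2 difference was −0.63 (two-sided exact permutation p = 0.00433, adjusted 0.0173). In batch B the medians were 0.180 and 0.112 and the log2 difference was −0.80 (permutation p = 0.0460, adjusted 0.123). The ratio of Mos to Ccnb1 had medians of 0.638 in GV and 0.428 in MII oocytes, a log2 difference of −0.35 (exact permutation p = 0.0823, adjusted 0.165), and the ratio of Wee2 to Cdc25b, an inhibitory kinase against an activating phosphatase, had medians of 10.4 and 15.1, a log2 difference of 0.61 (exact permutation p = 0.117, adjusted 0.187). In batch B these differences were −0.03 (permutation p = 0.847) and −0.12 (permutation p = 0.670). With HTSeq counts both had the opposite sign, at 0.035 (permutation p = 0.810) and 0.43 (permutation p = 0.199).

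At the isoform level, 45 transcripts of the 10 genes were listed, and 21 passed the filter on low counts in batch A. Of these 1 rose and 1 fell at MII by edgeR's test, against 3.49% and 5.81% of the 22461 transcripts tested. The stages did not overlap for 2 of the 21, and the share of all transcripts without overlap was not computed. Cdk1-202, a transcript of 1253 bases with a 3′ UTR of 174 bases, had 54.6, 78.2 and 98.2 CPM in GV and 31.8, 35.1 and 43.1 CPM in MII oocytes. It showed no overlap and a log2 change of −1.12 (SE 0.16, 95% confidence interval −1.47 to −0.78, edgeR adjusted p = 0.000862). Cdk1-201, of 4375 bases with a 3′ UTR of 3352 bases, had 7.39, 11.7 and 16.8 CPM in GV and 12.4, 14.6 and 19.1 CPM in MII oocytes, with a log2 change of 0.27 (SE 0.24, edgeR adjusted p = 0.554), and −0.43 on the spike-in scale. Ccna2-201 rose from 74.2, 92.8 and 105.7 CPM to 120.2, 132 and 135 CPM without overlap, a log2 change of 0.51 (SE 0.11, edgeR adjusted p = 0.0108) in relative abundance that was −0.19 on the spike-in scale and was lost without a filter on low counts (edgeR adjusted p = 0.191) and with the oocyte number as a block (0.0758).

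The share of Cdk1 counts assigned to Cdk1-201 was 10.0%, 12.2% and 15.4% in GV oocytes and 26.3%, 27.4% and 30.6% in MII oocytes of batch A. Cdk1-202 took 78.7%, 81.2% and 85.1% in GV and 65.6%, 68.1% and 70.7% in MII oocytes. The stages did not overlap for either share, but both are parts of one total and so are not independent. How often such shares overlapped in other genes was not computed. In the test of transcript usage, edgeR's diffSpliceDGE, Cdk1 did not pass (gene-level edgeR adjusted p = 0.422), and 0 of the 6 member genes with several transcripts tested passed, against 2.39% of 5477 genes. At an unadjusted p under 0.05 there was 1 of the 6, Cdk1, beside 440 of the 5477 genes. In batch B the share of Cdk1-201 was 5.61%, 12.5% and 17.4% in GV and 9.34%, 15.0% and 50% in MI oocytes, the highest being MI oocyte 15, which had 42 counts of Cdk1 in all. RSEM divides reads that fit both transcripts, which share their coding exons, so these shares are estimates.

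**Figure D3:**
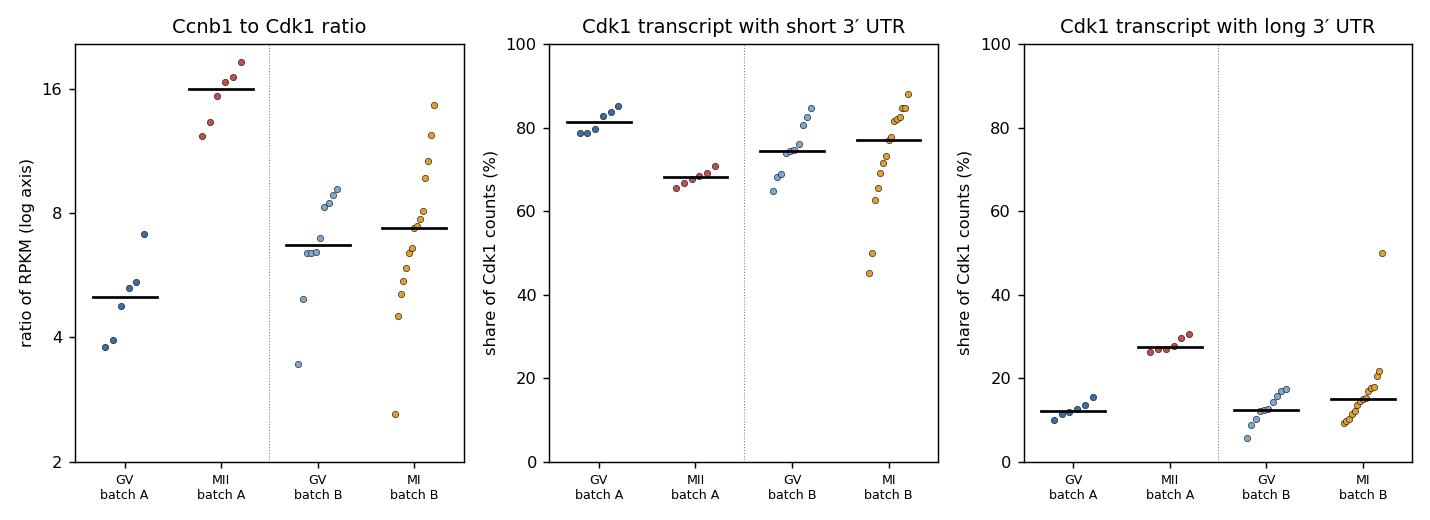
Ratio of Ccnb1 to Cdk1 in RPKM on a log axis (left) and the percent of Cdk1 counts assigned to Cdk1-202 (middle) and Cdk1-201 (right) in each oocyte, with bars at the medians. MII oocytes of batch A lie at ratios of 12.3 to 18.6 against 3.80 to 7.14 in GV oocytes, and at shares of Cdk1-201 of 26.3% to 30.6% against 10.0% to 15.4%.

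Of the other genes, some were carried mostly by one transcript and some were divided. Wee2-201 held a median of 99.3% of Wee2 counts in GV and 99.2% in MII oocytes, Cdc25a-201 98.8% and 98.7%, and Ccnb1-201 94.4% and 95.2%. Ccna2 was divided between Ccna2-201 (71.2% in GV and 72.6% in MII oocytes) and Ccna2-203 (28.4% and 27.0%), which is annotated for nonsense-mediated decay. Cdc25b and Ccnb3 were each divided between a pair of protein-coding transcripts of similar length whose shares varied widely, from 20.2% to 67.0% for Cdc25b-201 and from 51.4% to 100% for Ccnb3-201 in GV oocytes of batch A. Pkmyt1-201 held a median of 95.7% of Pkmyt1 counts in GV and 92.2% in MII oocytes of batch A. In batch B it held 72.8% in GV and 69.2% in MI oocytes. Mos and Ccnb2 each had a single annotated transcript. Between GV and MI, 0 of 23 transcripts passed with edgeR and 0% of the 22717 tested, while 5 of the 23 and 1615 of all transcripts tested had an unadjusted p under 0.05, and DESeq2 called 120 transcripts, 0 of them from these genes.

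The 3′ ends of the transcripts are shown because cytoplasmic polyadenylation acts on them. The last 100 bases of each annotated protein-coding transcript were searched on the transcript strand for the polyadenylation signals AATAAA and ATTAAA and for the cytoplasmic polyadenylation elements TTTTAT and TTTTAAT. Among 57901 protein-coding transcripts, 42.6% held AATAAA, 14.2% ATTAAA, 9.89% TTTTAT and 3.48% TTTTAAT in a window of this length. Of the protein-coding member transcripts with a mean of at least 10 counts per oocyte and a match, Wee2-201 held both elements and a signal that lies between them, Ccnb1-202 held TTTTAAT and AATAAA, and Ccnb1-201, Ccnb2-201, Ccna2-201, Cdk1-201, Cdc25a-201, Cdc25b-201, Cdc25b-202, Pkmyt1-201 and Mos-201 held AATAAA without either element in this window. Ccnb1-201 ends further downstream than Ccnb1-202, at chr13:100778650 against chr13:100778732. The TTTTAAT stretch of Ccnb1-202 thus lies within the span of Ccnb1-201 but outside its last 100 bases. Elements upstream of the window were not searched for in any transcript. Ccnb3-201 and Ccnb3-202, which end at the same base, held TTTTAT and AATAAA. None of the 4 motifs was in the last 100 bases of Cdk1-202, which ends upstream at chr10:69338324. Some of these stretches follow, those of Cdk1, Ccnb1, Ccna2, Wee2 and Mos. Each lies at the 3′ end on GRCm38, is written 5′ to 3′ on the transcript strand and carries the motif in capitals.
Cdk1-201 (chr10:69335156-69335185, minus strand): ctaatggcacggAATAAAaggattattcac
Ccnb1-201 (chr13:100778656-100778685, minus strand): ctttatgttgctAATAAAcatagttttcga
Ccnb1-202 (chr13:100778775-100778804, minus strand): ctcatttgctgTTTTAATttatacatctga
Ccna2-201 (chr3:36564873-36564902, minus strand): tatatgtgtgtaAATAAAgcatgcaaatta
Wee2-201 (chr6:40466757-40466786, plus strand): tttttaacataTTTTAATccagatcattgt
Wee2-201 (chr6:40466784-40466813, plus strand): tgtaaataaagaTTTTATcttatccaaaga
Mos-201 (chr4:3870661-3870690, minus strand): atatttttaggaAATAAAgttaccacgaac
A match is a description of the letters and does not show that a site is used, and the signal of an expressed transcript can lie elsewhere when its end differs from the annotated one.

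Other genes of the pathway were taken from a list of 24, of which 21 passed the filter on low counts in each batch. In batch A 1 was higher and 4 were lower at MII, where 9.06% of all genes tested were higher and 11.5% lower, and the median log2 change was 0.10. Map2k1, the kinase that Mos phosphorylates, rose from a mean of 223 CPM (SD 26.6, n = 6) to 356 CPM (SD 17.8, n = 6) without overlap, a log2 change of 0.68 (SE 0.11, edgeR adjusted p = 0.000864) in relative abundance, and it was −0.04 on the spike-in scale. Mapk3, the MAP kinase at the end of that cascade, fell from 201 CPM (SD 39.1) to 104 CPM (SD 35.7), a log2 change of −0.94 (SE 0.19, edgeR adjusted p = 0.00322). Wee1, the somatic relative of Wee2, fell from 22.0 CPM (SD 12.6) to 9.65 CPM (SD 2.31), a log2 change of −1.19 (SE 0.30, edgeR adjusted p = 0.0121), which was −0.83 without GV oocyte 5 (edgeR adjusted p = 0.0315).

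Cdk7 and Mnat1, subunits of the kinase that activates Cdk1, fell by 0.61 each on the log2 scale (edgeR adjusted p = 0.0324 and 0.0381). These calls were lost without GV oocyte 3 (edgeR adjusted p = 0.0502 for Cdk7 and 0.0690 for Mnat1), GV oocyte 4 (0.0809 and 0.0831), GV oocyte 5 (0.0765 and 0.0826), MII oocyte 1 (0.0681 and 0.0782), MII oocyte 4 (0.0782 and 0.0884) or MII oocyte 5 (0.0688 and 0.0787), that of Mnat1 also without a filter on low counts (0.0753), and both with the oocyte number as a block (0.0882 and 0.0975). Between GV and MI, 0 of the 21 genes passed with edgeR. In the test of the change to MII minus the change to MI, 3 of the 21 passed, all with a positive difference, against 3.1% positive and 2.36% negative over all genes tested. They were Map2k1 with 0.85 (SE 0.18, edgeR adjusted p = 0.0034), Cks2, a small Cdk-binding protein, with 1.04 (SE 0.32, 0.0424), and Chek1, the checkpoint kinase that acts on Cdc25 proteins, with 0.58 (SE 0.17, 0.0382). Cks2 had a log2 change of 0.27 at MII (edgeR adjusted p = 0.371) and of −0.69 at MI (edgeR adjusted p = 0.146), and Chek1 of 0.39 at MII (0.105) and −0.12 at MI (0.70), so neither passed within a batch. With HTSeq counts the difference was lost for Cks2 (edgeR adjusted p = 0.0685) and Chek1 (0.140), as it was with HTSeq counts without MI oocytes 4, 8 and 9 (0.0998 and 0.0729), while Map2k1 passed in all 5 other settings.

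The genes most like Cdk1, Ccnb1 and Mos were sought by Pearson's r of log2(CPM + 1) over the 12 oocytes of batch A among 11803 genes. For Cdk1 they were Gm20234 and Aptx (r = 0.974 for each), for Ccnb1 Cenpn (0.987) and Lrr1 (0.978), and for Mos Mllt11 and Hist1h2ad (0.944 for each). Over the 25 oocytes of batch B the same pairs had r = 0.339 and 0.391 for Cdk1, 0.393 and 0.517 for Ccnb1, and 0.373 and 0.115 for Mos. The oocytes of a batch share their stage groups, library preparation and scaling, and r is given as a description.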

How the data were processed

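The deposited tables held RSEM expected counts and HTSeq counts, made by the authors with Trim Galore 0.6.4, STAR 2.7.6a, HTSeq 0.12.4 and RSEM 1.3.1 on mm10, as their processing notes state. Expected counts were rounded to whole numbers. Identifiers were matched to GENCODE M21 (54723 genes, 138789 transcripts), whereas the authors counted on release VM20, so annotated ends, UTR lengths and motif positions could differ. Of the transcripts, 137913 carried the same version in both, and 92 spike-ins were left out. Within each batch, edgeR 4.0.16 in R 4.3.3 applied filterByExpr (minimum count 10), TMM and the quasi-likelihood test, with Benjamini-Hochberg adjustment over all genes or transcripts tested. DESeq2 1.42.0 gave a second test, limma 3.58.1 was loaded by edgeR, and Python 3.11.15, pandas 2.3.3 and matplotlib 3.10.9 served for tables and drawings. Ratios were compared by permutation of oocytes.

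All members are named, with up to 6 passing pathway genes per comparison by smallest adjusted p, transcripts with a mean of at least 10 counts per oocyte, and the 2 genes of highest r. The members and lists were chosen with earlier results of these data known.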

Additional observations from a re-analysis of the deposited data

Results flagged for a closer look

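Single oocytes that stood apart from their group by Dixon's test were listed for the 3 groups of up to 10 oocytes. The 15 MI oocytes were not tested. Here 5 of 45 sets tested went over the critical value, 1 of them among the 30 sets of member genes, where about 1 in 20 would do so by chance. MII oocyte 1 had 29816 genes detected (other MII oocytes 19574 to 22598) and 15.7 CPM of blood markers (others 0.106 to 0.690). MII oocyte 2 had 8287 CPM of oocyte markers (others 6578 to 6817). GV oocyte 6 of batch B had 11.5 CPM of Cdc25b (others 22.0 to 32.0), and GV oocyte 10 of batch B had 54.7 CPM of cumulus markers (others 20.5 to 37.6).

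Changes that differed between the batches, by edgeR's adjusted p under 0.05 for the change to MII minus the change to MI, were those of Ccnb1 (log2 difference 0.85), Map2k1 (0.85), Chek1 (0.58) and Cks2 (1.04). Of 5 other settings, Map2k1 passed in all 5 and Ccnb1, Chek1 and Cks2 in 3 each.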

How the results depend on the processing

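Results were recomputed under other settings. Of 459 values for single genes or transcripts, 370 stayed the same, 35 were weaker, 14 stronger and 40 reversed, and of 166 summary values 111 stayed, 52 moved and 3 reversed. The cause of these shifts was not tested. The difference fits without MII oocyte 1 or with HTSeq counts without MI oocytes 4, 8 and 9 were chosen after seeing the data.

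For GV against MII genes, 2662 were called. Spike-in scaling called 5596 (144 higher, 5452 lower) and reversed Ccnb1 (−0.10), Ccna2 (−0.22), Wee2 (−0.30), Pkmyt1 (−0.66), Cdc25a (−0.48), Mos (−0.55) and Map2k1 (−0.043). Without the filter Pkmyt1 was −0.036, and with HTSeq counts Ccnb2 was 0.027 and Cdc25b 0.028. Leaving out 1 oocyte gave 1991 to 2575 called genes (854 to 1131 higher, 1137 to 1448 lower) and 2 to 4 members, and ranges of −0.16 to 0.17 for Pkmyt1, −0.11 to 0.072 for Ccnb3, −0.18 to 0.14 for Ccnb2 and −0.19 to 0.040 for Cdc25b.

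With the oocyte number as a block, 1587 genes were called (597 higher, 990 lower). The labels do not state that numbers pair samples. GV and MII oocytes of the same number correlated at 0.355, 0.0773, −0.218, −0.211, −0.391 and −0.187, those of batch B at −0.199 to 0.136, and only GV oocyte 1 of batch A matched its own number best. These correlations cannot show whether oocytes shared an animal. For GV against MI with this block 0 genes were called and Pkmyt1 was 0.10. Among transcripts at MII 627 were called (220 higher, 407 lower), 1 of them from a member, and Wee2-201 at MI was 0.024.

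For GV against MI genes, DESeq2 called 177 (135 higher, 42 lower), RLE factors 13 (10 higher, 3 lower), no filter 44 (19 higher, 25 lower), and HTSeq counts 0, also without MI oocytes 4, 8 and 9. Pkmyt1 was 0.19 with HTSeq counts and 0.28 without those oocytes, where Ccnb3 was −0.031. Without MI oocyte 15, 24 genes were called (18 higher, 6 lower).

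For GV against MII transcripts, DESeq2 called 3419 (1450 higher, 1969 lower). No filter called 1461 (507 higher, 954 lower), with 1 member, which was lower. Spike-in scaling called 5142 (116 higher, 5026 lower), with Ccna2-201 at −0.19, Ccna2-203 at −0.28, Wee2-201 at −0.30, Cdk1-201 at −0.43 and Ccnb1-201 at −0.068. For GV against MI transcripts, DESeq2 called 120 (103 higher, 17 lower) and no filter 2 lower, and Wee2-201 was 0.0022 with DESeq2 and 0.0014 with RLE factors.

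For the difference of changes, the main fit called 823 of 15083 genes (467 higher, 356 lower) and 1 member. DESeq2 called 1158 (642 higher, 516 lower) and 2 members, and the fit without MII oocyte 1 512 (279 higher, 233 lower) and 2 members. HTSeq counts called 319 (119 higher, 200 lower) and 0 members, and without MI oocytes 4, 8 and 9 374 (159 higher, 215 lower) and 0 members. Pkmyt1 was −0.10 with HTSeq counts and −0.18 without those oocytes, and Ccnb3 was 0.028 there and 0.033 without MII oocyte 1. Without MI oocyte 15, 925 were called (540 higher, 385 lower) and Ccnb3 was −0.032. With HTSeq counts in batch B, the log2 difference was −0.092 for Ccnb1 to Cdk1, 0.43 for Wee2 to Cdc25b and 0.035 for Mos to Ccnb1.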
